A study of Sus scrofa with 70 samples.

Results

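The LMAN family of lectin cargo receptors and their cofactor MCFD2 were followed across 5 organs of the male pig reproductive tract. The 5 genes (LMAN1, LMAN1L, LMAN2, LMAN2L and MCFD2) were picked by name out of 35680 genes, and LMAN1L was included because its RNA is concentrated in the bulbourethral gland, so its levels by gland are given as a description with no test. RNA was sequenced from adult boars of 12 months, and the organs were the testis, the epididymis and the 3 accessory glands, here shortened to VG (vesicular), PG (prostate) and BG (bulbourethral). The boars belonged to the Banna mini-pig inbred line (BMI) and the Diannan small-ear pig (DSE), and the labels name no treatment. Short-read RNA-seq gave 3 libraries per breed and gland, 30 in all, and PacBio Iso-seq gave 1 library per breed and gland, 10 in all. Each short-read value is in transcripts per 1000000 (TPM), summed over the transcripts of a gene. TPM is scaled to transcript length, so comparisons between genes depend on the transcript models used. The labels number the short-read libraries but do not say which came from the same boar, so the tests measure the spread between these libraries.

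Secreted and membrane glycoproteins leave the endoplasmic reticulum (ER) in vesicles coated with COPII, and escaped ER proteins and the receptors themselves are brought back in vesicles coated with COPI. LMAN1, also called ERGIC-53, is a mannose-binding lectin that cycles between the ER and the intermediate compartment and, with the calcium-binding partner MCFD2, carries coagulation factors V and VIII out of the ER. LMAN2, also called VIP36, is a related lectin of the early secretory pathway, LMAN2L (VIPL) is its ER-resident relative, and LMAN1L is a paralogue of LMAN1. All 3 accessory glands release large amounts of protein into seminal fluid, and the bulbourethral gland of the boar makes its viscous, sialoprotein-rich gel.

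Germ cell, epididymal, vesicular and prostate marker lists each reached their highest summed TPM in the organ of that name, but some libraries stood apart. Vesicular gland secretory proteins (4 of 6 listed genes in the table, among them the spermadhesins AWN and PSP-I) summed to 152882 TPM in BMI prostate gland replicate 2, against 1.09 to 9.88 TPM in the other 5 prostate libraries and 192405 to 267272 TPM in vesicular gland. Smooth muscle genes summed to 15013 TPM in BMI epididymis replicate 1 and 24660 TPM in DSE epididymis replicate 2, against 2351 to 8889 TPM in the other 4 epididymal libraries, and vesicular gland proteins reached 4825 and 1458 TPM in those 2 libraries, against at most 358 TPM in the other 4. Epididymal epithelium genes summed to 33959 TPM in BMI epididymis replicate 2 and to 1766 to 5002 TPM in the other 5. In DSE testis replicate 2, germ cell genes summed to 24668 TPM and Leydig cell genes to 63338 TPM, while the other 5 testis libraries held 72756 to 110408 and 18526 to 32256 TPM. In whole organs, fewer cells of a type and less RNA per cell cannot be told apart.

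LMAN1L was an abundant transcript in the bulbourethral gland and was near 0 in testis, epididymis and vesicular gland. In BG the 3 BMI libraries held 1872, 1464 and 1411 TPM, and the 3 DSE libraries held 1110, 1036 and 725 TPM. The mean of 1270 ± 399 TPM (SD, n = 6) placed LMAN1L at rank 80 of the 27852 genes above 0 in that gland. In PG the BMI libraries held 4.70, 1.47 and 1.07 TPM and the DSE libraries 5.0, 1.68 and 3.68 TPM. The lowest BG library was therefore 145-fold above the highest PG library, and the ratio of the means was 433. Prostate was also set apart from the other organs, since its lowest value, 1.07 TPM, was above the highest testis value, 0.230 TPM. Testis libraries ranged from 0.0495 to 0.230 TPM, VG libraries reached at most 0.0594 TPM, and in epididymis 4 of 6 libraries were listed at 0 with a highest value of 0.0611 TPM. The prostate library with vesicular gland proteins, BMI replicate 2, was within the prostate range for LMAN1L at 1.47 TPM.

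**Figure D1:**
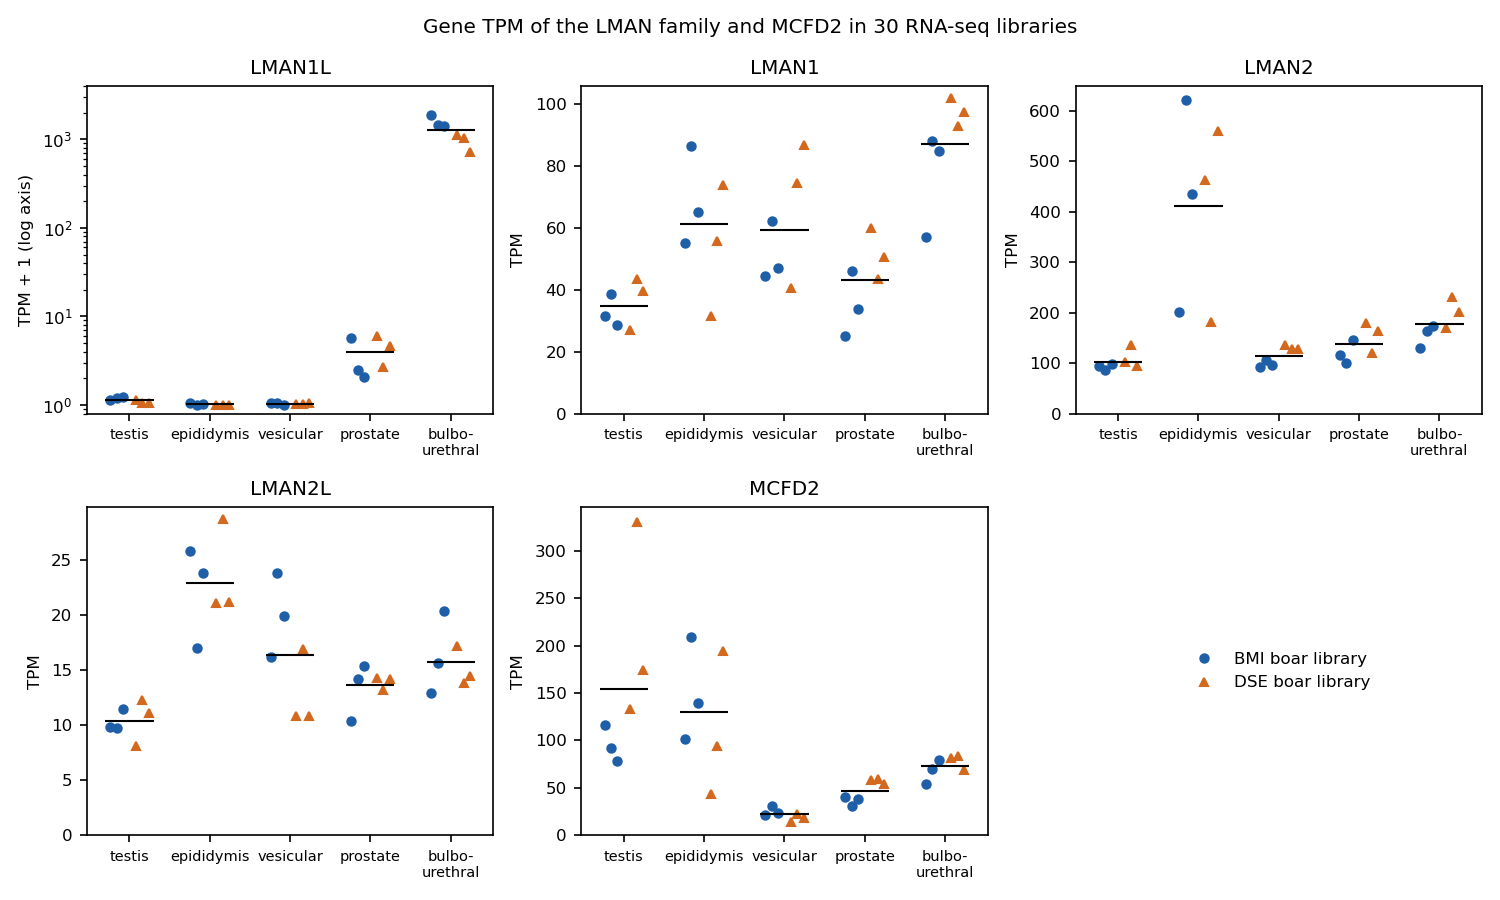
TPM of the 5 genes in each short-read library (circles BMI, triangles DSE; horizontal lines are means of 6 libraries) by gland; the LMAN1L axis is logarithmic and shows TPM + 1, the others are linear from 0. LMAN1L stood between 725 and 1872 TPM in bulbourethral gland and at or below 5.0 TPM elsewhere, while the other 4 genes were measured in every gland.

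LMAN1L exceeded the other lectins of the family in every BG library. In BG, LMAN1L made up a median of 81.4% of the summed TPM of LMAN1, LMAN1L, LMAN2 and LMAN2L (69.9% to 90.3%, n = 6), against a median of 1.26% in PG and at most 0.166% in any library of testis, epididymis or VG. Relative to LMAN1 in the same library, LMAN1L was 7.45 to 32.8 times as high in BG, with a median ratio of 13.9. The highest such ratio came from BMI replicate 1, which had the most LMAN1L (1872 TPM) and the least LMAN1 (57.1 TPM) of the 6 BG libraries. The Iso-seq reads of BG gave a narrower margin, with 196 LMAN1L reads in BMI against 99 of LMAN1, 123 of LMAN2 and 57 of LMAN2L. In DSE the counts were 122 against 113, 24 and 18. The leading Iso-seq isoforms of LMAN1 and LMAN2 had no TPM of their own, and the part of this in the TPM margin was not tested.

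Long reads of LMAN1L came from the bulbourethral gland. Iso-seq counted 196 full-length reads of LMAN1L in BMI BG, or 504 reads per 1000000 reads of the library (RPM, 95% Wilson interval 439 to 580.1), and 122 in DSE BG, or 459.7 RPM (385 to 549). No read was counted in the other 8 libraries (the 10 libraries hold 231413 to 458697 reads each), and a count of 0 allows at most 6.54 to 13.0 RPM in those libraries (limit of 3 reads). These intervals cover counting error only, and a single library per breed and gland allows no test.

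The relatives lie on chromosomes 1 (LMAN1, 161607143 to 161631651), 2 (LMAN2, 80595334 to 80609594) and 3 (LMAN2L, 56879221 to 56906710, and MCFD2, 93620936 to 93633015), all on the plus strand of Sscrofa11.1. The LMAN1L gene lies on chromosome 7 (Sscrofa11.1, 58717821 to 58730172, minus strand, ENSSSCG00000001899), with 1 Ensembl transcript of 13 exons. The 318 Iso-seq reads fell into 21 isoforms, of which the commonest, with 231 reads, matched every splice junction of the Ensembl transcript and encodes 504 amino acids. In RNA-seq the Ensembl transcript held 79.2% ± 1.12 (SD, n = 6) of the LMAN1L TPM in BG. The remaining 20 isoforms were unannotated, and 15 of all 21 were classed as retaining an intron.

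The third isoform in number of reads carried an unannotated exon inside the sixth intron of the reference transcript. This exon, chr7:58724202-58724351 on the minus strand, is 150 bases long, a multiple of 3, and overlaps no exon of the RefSeq models of the gene. It was found in 13 reads (4.09% of 318) of an isoform of 14 exons, whose reading frame from the RefSeq start codon ran to 554 residues against 504 in the reference transcript. The same splice donor was used by a longer version of the exon of 200 bases, which is not a multiple of 3 and was held by 2 isoforms with 7 reads. The genomic sequence of the 150-base exon with 10 intron bases on each side (chr7:58724192-58724361, 5′ to 3′ on the minus strand) is shown because no annotated transcript holds it, and the capitals mark the AG acceptor and GT donor next to the exon.
LMAN1L added exon: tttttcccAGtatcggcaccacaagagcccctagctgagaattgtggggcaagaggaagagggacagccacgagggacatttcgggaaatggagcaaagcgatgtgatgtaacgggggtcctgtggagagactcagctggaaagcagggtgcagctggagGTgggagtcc

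The long reads of LMAN1L kept introns more often in the DSE than in the BMI library. The share of such reads over all genes in these libraries was not counted. In the study's isoform counts, genic, intergenic and non-coding classes held larger shares in DSE BG than in BMI BG. A difference of LMAN1L therefore cannot be told apart from one of the whole library. Isoforms classed as retaining an intron held 21 of 196 reads in BMI BG (10.7%, 95% Wilson interval 7.12 to 15.8) and 44 of 122 reads in DSE BG (36.1%, 28.1 to 44.9). The full splice match held 82.7% of the BMI reads (76.7 to 87.3) and 56.6% of the DSE reads (47.7 to 65.0), and isoforms predicted to be targets of nonsense-mediated decay held 3.57% (1.74 to 7.19) and 24.6% (17.8 to 32.9). The ninth intron, 1045 bases long (chr7:58721492-58722536), was kept in 6 BMI reads (3.06%, 1.41 to 6.52) and 33 DSE reads (27.0%, 20 to 35.5). The second intron was kept in 16 reads of each breed, although DSE had fewer reads in all. Reading through the ninth intron ended the frame after 382 residues in the commonest isoform that keeps it, which had 16 reads. The borders of this intron, 10 exon and 20 intron bases at each end, are shown because they hold the GT and AG dinucleotides, in capitals, of a standard intron.
Intron 9 donor: gagcacctggGTgagtggactctgtggtaa
Intron 9 acceptor: agaggctggcactcccgcAGgactcagcca

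In RNA-seq the isoforms that keep the ninth intron held 8.78%, 5.57% and 7.91% of the LMAN1L TPM in the 3 BMI libraries of BG and 5.88%, 5.99% and 5.22% in the 3 DSE libraries, so the breeds overlapped. For the second intron every BMI library (10.4%, 7.18% and 9.08%) was above every DSE library (6.16%, 3.92% and 4.30%). Introns 3 and 4 had the same order, but both are kept by the same 3 isoforms, at most 3.61% of TPM. By length and exon count these isoforms also keep the second intron, so these introns are not separate results. No share over all isoforms was counted for breeds that do not overlap. All 15 isoforms with a retained intron held 14.9% ± 1.9 in BMI and 11.7% ± 1.55 in DSE (SD, n = 3 each, two-sided exact permutation test, p = 0.20, where 3 against 3 libraries allow no p below 0.10). The isoforms predicted to be targets of nonsense-mediated decay held 8.14% ± 0.83 in BMI and 6.36% ± 0.32 in DSE (SD, n = 3 each, exact permutation test, p = 0.10), with no overlap and with BMI higher, where the long reads had DSE higher. The difference between 1 BMI and 1 DSE Iso-seq library therefore has no replicate, and its direction was not that of the short reads. The Iso-seq isoform that matches the reference splicing was left out of the annotation used for TPM in favour of the Ensembl transcript.

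**Figure D2:**
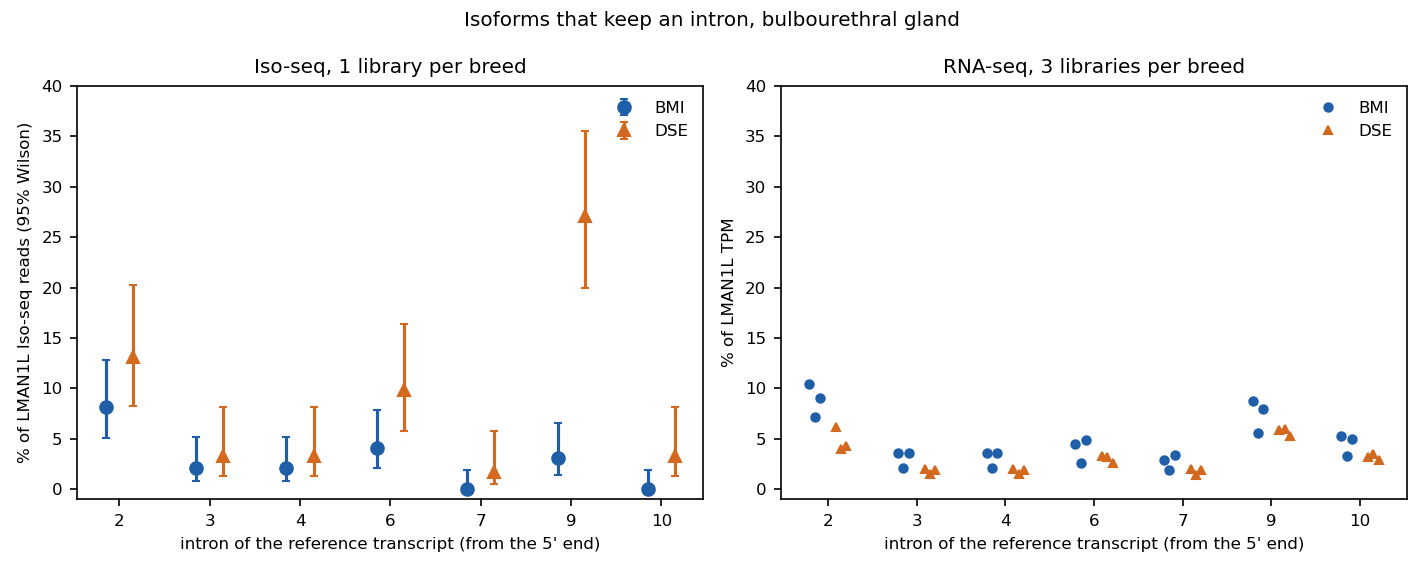
Share of LMAN1L transcripts that keep each reference intron in bulbourethral gland (introns counted from the 5′ end; circles BMI, triangles DSE). Left, percent of Iso-seq reads in 1 library per breed with 95% Wilson intervals; right, percent of LMAN1L TPM in 3 RNA-seq libraries per breed, where no intron passed 10.4% in any library while the ninth reached 27.0% of DSE long reads.

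LMAN2 had the highest mean TPM of the 4 relatives in every gland but testis, where MCFD2 was higher, and it was called higher in the epididymis. Its libraries ranged from 182 to 622 TPM there (median 449), and from 86.5 to 230.0 TPM in the other 4 glands. Of the 6 epididymal libraries, BMI replicate 1 (202 TPM) and DSE replicate 2 (182 TPM), the libraries rich in smooth muscle genes, were lower than the other 4 (435 to 622 TPM). On the scale of log2(TPM + 1), LMAN2 was 1.52 ± 0.19 (SE) higher in epididymis than the mean of the other 4 glands (limma, adjusted p = 2.56e-07), and 2.0 higher without those 2 libraries. The highest library, 622 TPM, was BMI replicate 2, the one rich in epididymal epithelium genes, and the difference was 1.35 without it; the part of these cells in the LMAN2 levels was not tested. After TPM was divided by size factors, which set the median gene of each library to a common level over genes above 0 in all libraries, the difference was 1.02. The order of LMAN2 by mean TPM was epididymis (411), BG (178), PG (138), VG (114) and testis (102), and the libraries of each gland in this order overlapped with those of the next.

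MCFD2 was called in 3 of the 5 glands. Testis libraries ranged from 78.4 to 330.3 TPM (median 124), epididymis from 43.1 to 209 TPM (median 120.5), BG from 53.9 to 83.1 TPM (median 74.2), PG from 30.3 to 59.4 TPM (median 46.8) and VG from 14.2 to 31.1 TPM (median 21.9). Against the mean of the other 4 glands it was higher in testis by 1.34 ± 0.21 (adjusted p = 2.68e-06) and in epididymis by 1.04 ± 0.21 (adjusted p = 0.000166), and it was lower in VG by 1.95 ± 0.21 (log2 difference of -1.95, adjusted p = 2.05e-08), all on the log2(TPM + 1) scale with limma. Only the difference in VG kept its call in each alternative that was run. The testis difference was 1.15 without DSE testis replicate 2 and 0.79 in BMI libraries alone, below the threshold of 1, and the epididymal one was 0.54 after size factors and again in DSE libraries alone, 0.90 without BMI epididymis replicate 2, the library rich in epididymal epithelium genes, and 0.77 without DSE epididymis replicate 3. The highest MCFD2 value, 330.3 TPM, belonged to DSE testis replicate 2, the testis library with the fewest germ cell and the most Leydig cell transcripts, and the part of those cells in its level was not tested.

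LMAN1 was highest in the bulbourethral gland, where the libraries ranged from 57.1 to 102 TPM with a median of 90.3 TPM. The medians were 60.3 TPM in epididymis (31.4 to 86.5), 54.7 TPM in VG (40.5 to 86.5), 44.6 TPM in PG (25.1 to 59.9) and 35.0 TPM in testis (26.9 to 43.5). LMAN1 in BG was 0.86 ± 0.17 above the mean of the other 4 glands on the log2 scale (limma, adjusted p = 0.000130), a difference that passed the adjusted p but not the threshold of 1. It was 0.64 after size factors, and 0.42 with the Ensembl transcript alone (adjusted p = 0.566). Only in the contrast of BG with PG did LMAN1 pass both thresholds, by 1.02 ± 0.21 (adjusted p = 0.00104), and it fell below 1 after size factors (0.75) and without any of 4 libraries, namely BMI prostate gland replicate 1 (0.92), DSE prostate gland replicate 2 (0.97), BMI bulbourethral gland replicate 2 (0.97) and BMI bulbourethral gland replicate 3 (0.98). Against VG the difference of LMAN1 was 0.58 ± 0.21 and turned to -0.28 after size factors.

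LMAN2L was the least abundant of the 4 relatives. The highest library, DSE epididymis replicate 2, held 28.7 TPM and the lowest, DSE testis replicate 1, held 8.11 TPM. Means were 22.9 TPM in epididymis, 16.4 in VG, 15.7 in BG, 13.6 in PG and 10.4 in testis, and neighbours in this order overlapped. Its difference of 0.69 ± 0.13 in epididymis (adjusted p = 6.49e-05) did not pass the threshold of 1 and was 0.21 after size factors (adjusted p = 0.158). In epididymis the highest LMAN2L values, 25.8 and 28.7 TPM, came from BMI replicate 1 and DSE replicate 2, the libraries in which LMAN2 was lowest.

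Over the 4 relatives, a member counted as called when its adjusted p over 19911 genes was below 0.05 and its log2 difference at least 1 in size. In testis 1 of 4 was called, MCFD2, where 47.3% of all genes were called in either direction, and the other 3 passed the p alone in limma, with LMAN1 at -0.76 (adjusted p = 0.000248), LMAN2 at -0.81 (adjusted p = 0.000384) and LMAN2L at -0.63 (adjusted p = 9.07e-05). After size factors LMAN1 (-1.01) and LMAN2 (-1.06) were called in testis too. In epididymis 2 of 4 were called, LMAN2 and MCFD2, beside 21.6% of all genes. In VG MCFD2 alone was called, beside 33.0% of genes, and LMAN2 passed the p alone (-0.61, limma, adjusted p = 0.00531). In PG none of the 4 was called, beside 16.5% of genes (LMAN1 and MCFD2 passed the p alone in limma, with differences of -0.42 and -0.62 and adjusted p of 0.0406 and 0.0156). In BG none of the 4 was called, beside 20.4% of genes, and LMAN1 alone passed the p. For BG against VG 1 of 4 was called, MCFD2 at 1.72 ± 0.26 (adjusted p = 7.34e-06), beside 27.8% of genes, and for BG against PG 1 of 4, LMAN1, beside 7.65% of genes. LMAN1L passed the filter of 1 TPM in 3 libraries only through its BG and PG libraries, and it was left out of these counts.

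The scale of TPM moved the centre of all genes between glands. The median of all tested genes was 0.31 in testis, 0.25 in epididymis, -0.69 in VG, -0.28 in PG and -0.05 in BG on the log2 scale, and size factors shifted these by -0.18, -0.39, 0.50, 0.09 and -0.15. In VG, where the median gene was 0.69 below the other glands, LMAN1 at 0.14 and LMAN2L at 0.07 were thus above it; after size factors they were 0.98 and 0.89 higher in VG than elsewhere (adjusted p = 1.58e-06 and 1.69e-06). LMAN2 in VG was -0.61 and turned to 0.25 after size factors. MCFD2 in VG stayed lower on both scales, at -1.95 and -1.12.

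**Figure D3:**
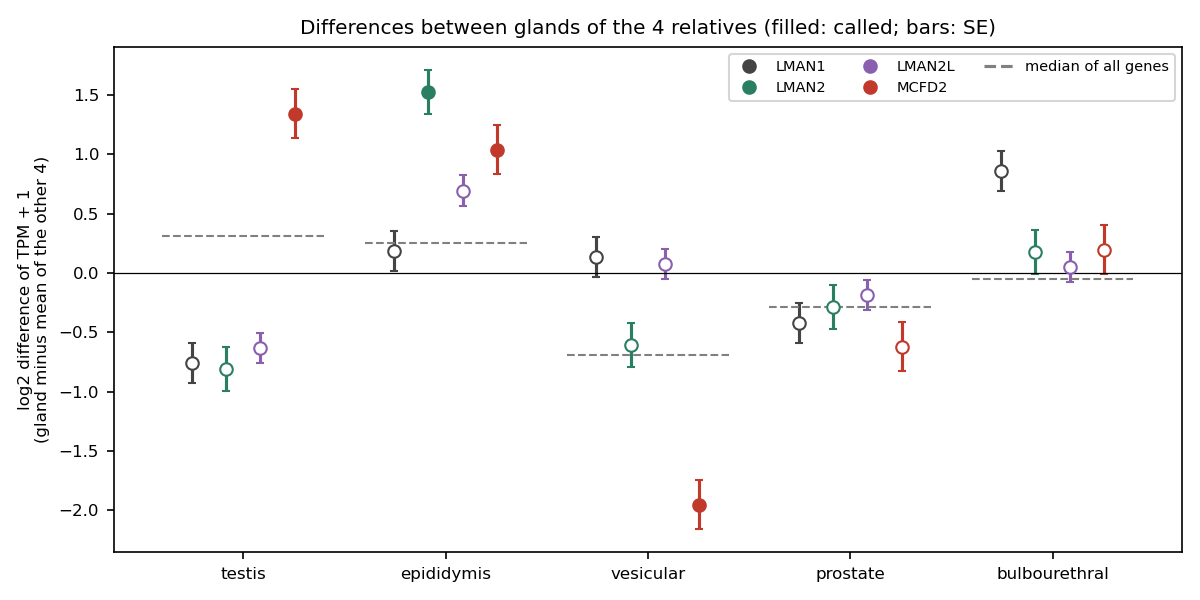
Log2 difference of TPM + 1 (gland minus the mean of the other 4 glands, points with SE bars, limma on 30 libraries) for the 4 relatives; filled points passed both thresholds and dashed lines are the median of all genes. MCFD2 lay at 1.34 in testis and -1.95 in vesicular gland, LMAN2 at 1.52 in epididymis, and LMAN1 at 0.86 in bulbourethral gland.

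The cofactor and the receptor were also compared as a ratio within each library. The ratio of MCFD2 to LMAN1 was 3.90 in testis (geometric mean from TPM + 1, with single libraries from 2.39 to 7.59 in TPM alone) and 0.382 in VG (0.209 to 0.499), while it was 1.95 in epididymis, 1.09 in PG and 0.841 in BG. In log2 units the testis ratio was 2.10 above the other 4 glands (two-sided exact permutation test over 593775 splits, p = 5.05e-06, adjusted p = 5.05e-05 over 10 tests) and the VG ratio was -2.09 against the others (exact p = 1.01e-05, adjusted p = 5.05e-05). No testis library overlapped with a VG library. These 2 differences held in each of 32 alternatives, from 1.92 to 2.28 in testis and from -2.27 to -1.93 in VG. The differences in epididymis (0.85), PG (-0.20) and BG (-0.67) missed the threshold (exact permutation test, adjusted p = 0.212, 0.804 and 0.340).

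The ratio of LMAN2 to LMAN1 was highest in epididymis, with a geometric mean of 6.25 and libraries from 3.27 to 14.8. It was 1.34 log2 units above the other 4 glands (exact permutation test, p = 4.72e-05, adjusted p = 0.000157). DSE epididymis replicate 1 gave the ratio of 14.8, and the 2 libraries rich in smooth muscle genes gave the lowest ones. Among the RNA-seq libraries, DSE epididymis replicate 1 has the lowest transcript integrity and the largest unmapped share in the quality control of the study, and the part of RNA quality in its ratio was not tested. Without this library the difference was 1.10 (exact permutation test, adjusted p = 0.000786). The ratio was 1.97 in VG, 2.04 in BG, 2.89 in testis and 3.19 in PG, and the differences in VG (-0.74, adjusted p = 0.0629) and BG (-0.68, adjusted p = 0.0804) missed the threshold in the exact permutation test.

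**Figure D4:**
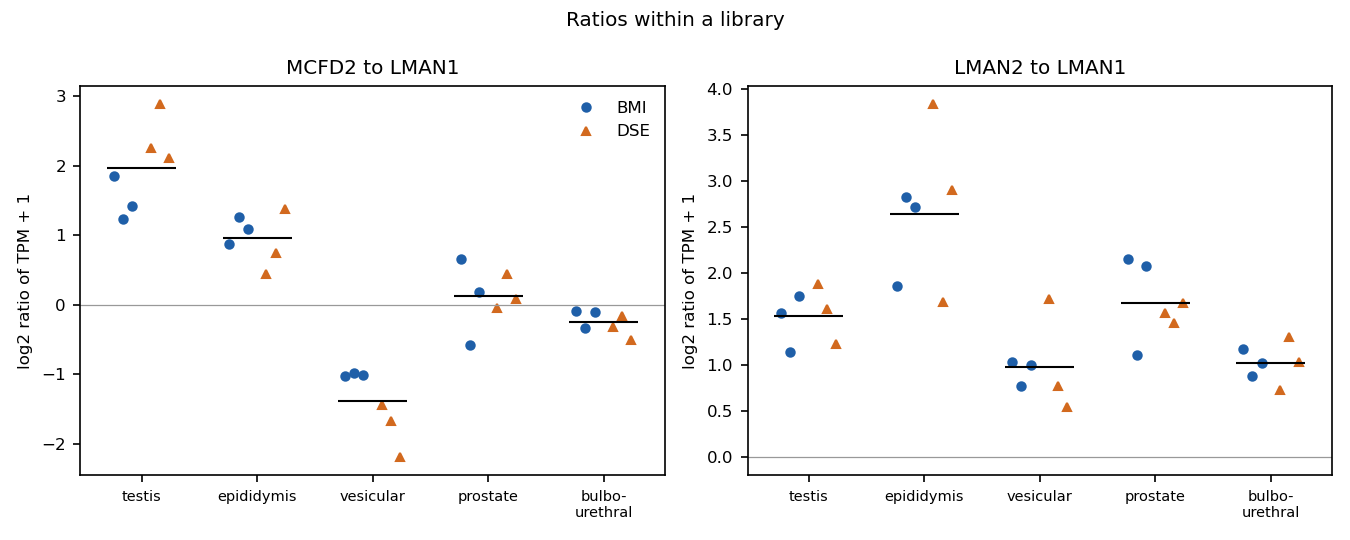
Log2 ratio of TPM + 1 of MCFD2 to LMAN1 (left) and of LMAN2 to LMAN1 (right) in each library by gland (circles BMI, triangles DSE; lines are means of 6 libraries). MCFD2 exceeded LMAN1 in all 6 testis libraries and was below it in all 6 vesicular gland libraries, and LMAN2 exceeded LMAN1 in TPM in every RNA-seq library.

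Iso-seq reads of the relatives ordered the glands differently. LMAN1 was at 681 RPM in BMI VG and 1191 in DSE VG, 805 and 679 in PG, 255 and 426 in BG, 177 and 99.4 in epididymis and 145 and 100.5 in testis, so that VG and PG were above BG while TPM placed BG first. For MCFD2, testis held 297 RPM in BMI and 437 in DSE, BG 450.4 and 418, PG 209 and 497, epididymis 238 and 194, and VG 187 and 189, with the fewest reads in VG and in DSE epididymis. LMAN2 was highest in DSE epididymis, at 1080.3 RPM (955 to 1223), but reached only 179 RPM (144 to 222) in BMI epididymis, counts that include reads fused to a neighbouring gene (1054 and 164 RPM without them). LMAN2L ranged from 19.7 RPM in DSE testis to 180.4 RPM in BMI VG. Iso-seq reads come from a polymerase chain reaction step, and between genes they did not give the order of TPM. LMAN1 had more reads than LMAN2 in VG, with 200 and 379 against 70 and 120 in BMI and DSE. It also had more in PG (212 and 228 against 75 and 53), in both testis libraries and in DSE BG (113 against 24). LMAN2 had more in BMI epididymis (82 against 81), DSE epididymis (250 against 23) and BMI BG (123 against 99). In TPM LMAN2 was above LMAN1 in every RNA-seq library, and the cause of this difference was not tested.

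Transcript models limited what TPM says about isoforms of the relatives. Isoforms that match only part of a known transcript were not added to the annotation by the study, and they held 95.3% of the Iso-seq reads of LMAN1, 91.5% of LMAN2, 96.3% of MCFD2 and 27.1% of LMAN2L, but none of LMAN1L. For LMAN1 the leading isoform, with 1358 reads, encodes 518 amino acids and has no TPM of its own, and the TPM was spread over 4 transcripts that each held at least 10% in some gland. The share of PB.1234.7 was 50.9% ± 12.6 of LMAN1 TPM in testis and 16.8% ± 7.16 in PG (SD, n = 6). By level it was called higher in BG (1.10 ± 0.34, adjusted p = 0.0131) and lower in PG (-1.08 ± 0.34, adjusted p = 0.0170) with limma, where 12.9% and 9.18% of 64661 transcripts were called, and PB.1234.25, of 2 exons, was lower in testis (-2.30 ± 0.73, adjusted p = 0.00899), where 37.9% were called. In the long reads PB.1234.7 had 21 of 1447 LMAN1 reads (1.45%), and PB.1234.25 had 3. Of those of PB.1234.7, testis held 5 in BMI and 8 in DSE, and BG held 0 and 2. These TPM calls are thus on transcripts with few long reads. MCFD2 was carried by 2 Ensembl transcripts of 5 exons in every gland, with 67.5% to 70.8% on ENSSSCT00000028543 and 26.2% to 30.3% on ENSSSCT00000035262. ENSSSCT00000028543 was called higher in testis (1.32 ± 0.19, adjusted p = 1.90e-06) and epididymis (1.09 ± 0.19) and lower in VG (-1.94 ± 0.19), where 37.9%, 14.0% and 15.9% of transcripts were called, and ENSSSCT00000035262 was higher in testis (1.35 ± 0.34) and lower in VG (-1.82 ± 0.34). LMAN2 was mostly carried by PB.10839.16, at 63.0% to 78.0% of its TPM by gland, and by ENSSSCT00000015337 at 17.6% to 35.5%. PB.10839.16 was called higher in epididymis (1.39 ± 0.20) and lower in testis (-1.03 ± 0.20), and ENSSSCT00000015337 higher in epididymis (1.93 ± 0.24) and lower in VG (-1.12 ± 0.24). Of LMAN2L, ENSSSCT00000106793, at 1.15% to 13.8% of its TPM by gland, was called higher in VG (1.12 ± 0.28). The transcript calls named for MCFD2, LMAN2 and LMAN2L, unlike those for LMAN1, each had an adjusted p of at most 0.00256 in limma. After size factors the transcripts called over the 4 relatives went from 3 to 1 in epididymis and from 2 to 1 in BG. In the long reads PB.10839.16, which retains an intron, had 9 of 868 LMAN2 reads (1.04%), of which 8 came from DSE epididymis, while PB.10839.11, with no TPM of its own, had 790 reads (91.0%). Transcripts fused to a neighbouring gene, 7 in number, were kept out of the LMAN2 TPM, though not out of its Iso-seq reads (868 with them, 823 without), and held a mean of 8.69 TPM in testis to 17.8 TPM in BG.

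No member was called between breeds in any gland, and LMAN1L in BG had breeds that did not overlap. In BG the lowest BMI library (1411 TPM) was above the highest DSE library (1110 TPM), and DSE minus BMI was -0.74 ± 0.21 on the log2 scale (limma within the gland, unadjusted p = 0.00724, adjusted p = 0.485). The lowest library, DSE replicate 3 (725 TPM), also held the most skeletal muscle transcripts of the gland (1948 TPM), and the difference was -0.55 without it. The next most, 553 TPM, was in BMI replicate 1, the library with the highest LMAN1L (1872 TPM), and the remaining 4 held 0.959 to 36.9 TPM. Mucous gland markers did not overlap between breeds either, with DSE higher (21993 to 36462 TPM against 17345 to 20465 TPM in BMI). The part of these cells in the LMAN1L difference was not tested. In that gland 10.7% of 13768 genes had breeds that did not overlap, and 3 genes (0.0218%) were called, beside 761 with an unadjusted p below 0.05, so that with 3 libraries per breed a missing call does not show equal levels. In PG the breeds overlapped for LMAN1L, with a difference of 0.45 ± 0.45 (adjusted p = 0.495). LMAN1 in BG did not overlap either, with DSE at 92.7 to 102 TPM and BMI at 57.1 to 88.0 TPM, for a difference of 0.36 ± 0.20 (adjusted p = 1.0).

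MCFD2 was higher in every DSE than in every BMI library of testis (133, 330.3 and 174 against 116, 92.2 and 78.4 TPM), a difference of 1.05 ± 0.36 that missed the adjusted p at 0.282 and was 0.68 without DSE testis replicate 2. Of 16414 genes in testis, 24.7% did not overlap between breeds and 0.621% were called. In PG the DSE libraries of MCFD2 (57.7, 59.4 and 53.5 TPM) were also above those of BMI (40.1, 30.3 and 38.6 TPM), by 0.64 ± 0.19 (adjusted p = 0.0901). There, however, 39.7% of genes did not overlap, 0.341% were called, and the median gene was 0.39 higher in DSE. The prostate difference of MCFD2 was 0.19 after size factors and 0.52 without BMI prostate gland replicate 2, the library with vesicular gland proteins. LMAN2 in VG did not overlap (DSE 136, 128 and 127 TPM, BMI 91.9, 107 and 95.7 TPM), by 0.41 ± 0.22 (adjusted p = 0.298) in a gland where 27.9% of genes did not overlap and 1.18% were called. Of those that did not overlap, 219 genes were higher and 3312 lower in DSE, the median gene was -0.42, and the difference of LMAN2 was 0.93 after size factors (limma, adjusted p = 0.153). No member was called in epididymis, where 5.34% of genes did not overlap and 0% were called, with 292 genes at an unadjusted p below 0.05. Breed differences by gland were also tested as an interaction, in which none of the 4 relatives passed (MCFD2 had the lowest adjusted p, 0.233, and an unadjusted p of 0.0183), beside 2.94% of genes. LMAN1L was left out of this count too.

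Genes that act beside the LMAN receptors were counted in the same way. Of 71 listed genes of the early secretory pathway, 67 were tested, and in BG 19 were higher and none was lower, where 8.44% of all genes were higher and 12.0% lower. Their median difference was 0.62, and that of all genes was -0.05. In testis 9 were higher and 8 lower (34.5% and 12.7% of all genes), in epididymis 11 and 1 (15.1% and 6.55%), in VG 0 and 16 (2.96% and 30.0%) and in PG 0 and 4 (3.71% and 12.8%). After size factors these counts were 3 higher and 5 lower both in epididymis and in VG, while in BG 17 were higher and none lower. In VG 10 were lower in BMI libraries alone and 26 in DSE libraries alone. In epididymis 4 were higher and 2 lower in DSE libraries alone. The list median in VG was -0.78, near the -0.69 of all genes. Plasma cell genes, another secretory cell type, summed to 34.2 to 324 TPM in BG (4 of 5 at 1 TPM or more on average) and to at most 114 TPM in any other gland. Epithelial markers summed to 2363 to 2793 TPM in BG and at most 2337 TPM elsewhere. Mucous gland markers (3 of 6 listed genes in the table, with TFF3 among them) summed to 17345 to 36462 TPM in BG and at most 2526 TPM elsewhere. Smooth muscle genes had a median of 207 TPM in BG against 161 in testis, 2117 in PG, 2523 in VG and 7310 in epididymis. The part of these cell types in the BG counts was not tested.

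By role, the COPII coat and its assembly factors had 5 of 16 genes higher in BG, with a median of 0.72. The largest were MIA3, which helps load bulky cargo, at 2.50 ± 0.16 (156 to 258 TPM in BG, at most 88.3 TPM elsewhere), SEC16B at 1.77 ± 0.20 and SEC16A at 1.70 ± 0.15, both organisers of ER exit sites. Of the COPI coat 6 of 14 were higher, led by the coat subunit COPZ2 at 2.42 ± 0.27, the small GTPase ARF4 at 1.86 ± 0.15 and COPZ1 at 1.48 ± 0.11, and the list median was 0.92. Other cargo receptors and p24 proteins had 5 of 19 higher. KDELR3, a receptor that returns ER proteins from the Golgi, was 3.15 ± 0.15 higher (179 to 209 TPM in BG, at most 62.9 TPM elsewhere), and the p24 proteins TMED3 and TMED9 were 1.61 ± 0.36 and 1.44 ± 0.12 higher, although TMED3 reached 261 TPM in an epididymal library and at most 126 TPM in BG. Lectin chaperones and ER quality control had 2 of 14 higher, CLGN (calmegin) at 2.85 ± 0.19 and EDEM3 at 1.97 ± 0.25. Among known cargo of LMAN1 and MCFD2, SERPINA1 (alpha-1-antitrypsin) was 2.22 ± 0.51 higher, although its highest library, 5465 TPM, was epididymal. Each of these adjusted p-values was at most 0.000716 in limma. Against PG, 19 of 67 were higher in BG and none lower (5.64% and 2.01% of all genes), and against VG 38 were higher and none lower (23.6% and 4.13%), and the count against VG was 12 after size factors.

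In the other glands, single genes of the lists stood out. CLGN, a chaperone known from male germ cells, was 5.58 ± 0.19 higher in testis (55.5 to 223 TPM), together with UGGT2 (2.32 ± 0.21) and SEC23A (2.15 ± 0.34), and SERPINA1, KDELR3 and EDEM3 were lower there (-3.37 ± 0.51, -3.30 ± 0.15 and -1.68 ± 0.25). In epididymis SERPINA1 (5.37 ± 0.51, 34.4 to 5465 TPM), TMED6 (1.84 ± 0.35) and CTSZ, a lysosomal protease carried by LMAN1 (1.51 ± 0.22), were the 3 largest of the 11 higher, and the 1 gene lower was CLGN (-3.15 ± 0.19, at most 0.960 TPM). In VG, SERPINA1 was lowest (-3.82 ± 0.51), followed by CLGN (-3.46 ± 0.19), listed at 0 in all 6 libraries, and TMED3 (-2.51 ± 0.36). In PG the called genes were CLGN (-1.82 ± 0.19), SEC23A (-1.03 ± 0.34), CTSZ (-1.02 ± 0.22) and COPG2 (-1.01 ± 0.16). The last 3 lay close to the threshold of 1, and the count of 4 in PG was 1 after size factors, in DSE libraries alone and without BMI epididymis replicate 1, BMI prostate gland replicate 3 or DSE prostate gland replicate 2. It was 2 without DSE testis replicate 2, DSE epididymis replicate 2, BMI vesicular gland replicate 2, DSE vesicular gland replicate 2 or DSE bulbourethral gland replicate 3. In BMI libraries alone it was 9. Each of the genes named for these glands had an adjusted p of at most 0.0144 in limma.

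**Figure D5:**
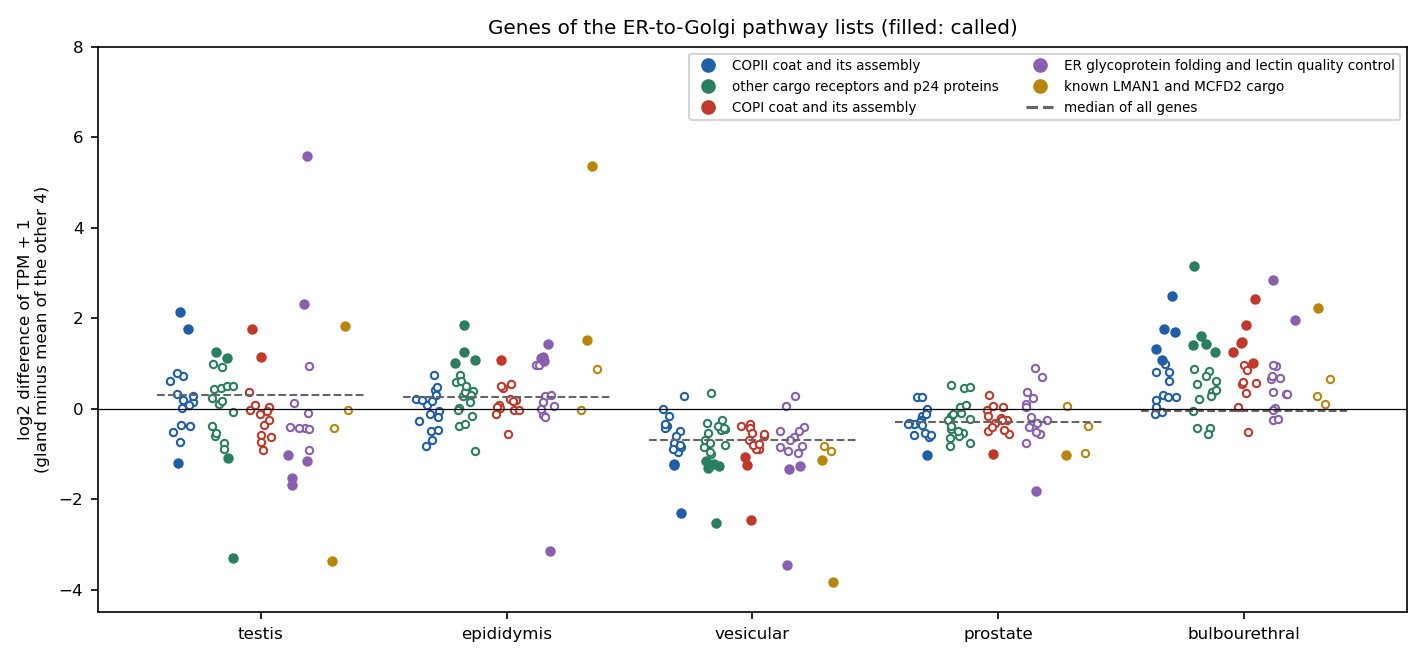
Log2 difference of TPM + 1 (gland minus the mean of the other 4 glands) for 67 genes of 5 pathway lists, 1 point per gene, filled where both thresholds were passed; dashed lines are the median of all genes. In bulbourethral gland 19 points are filled above 0 and none below, and in vesicular gland 16 are filled below 0.

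Genes whose levels ran most alike were listed for each member by Pearson's r of log2(TPM + 1) over the 30 libraries, which share gland and scaling, among 16079 genes and loci that carry more than an Ensembl identifier, with unannotated loci passed over. For LMAN1L these were TFF3 (r = 0.995), a trefoil peptide secreted with mucus, the mucosal chemokine CCL28 (0.981), the claudin CLDN22 (0.973), CLCA2 (0.973) and the nucleoside transporter SLC28A3 (0.970). TFF3 had a mean of 10738 TPM in BG (8225 to 14956), and in prostate it was 11.5, 0.547 and 0.868 TPM in BMI and 11.2, 0.430 and 14.9 TPM in DSE. The 3 prostate libraries with over 11 TPM of TFF3 were the 3 with the most LMAN1L (3.68 to 5.0 TPM). CCL28 was at most 0.0787 TPM in prostate, and CLDN22 (3.96 TPM), CLCA2 (5.28 TPM) and SLC28A3 (2.32 TPM) each had their highest prostate value in BMI replicate 3, the prostate library with the least LMAN1L (1.07 TPM). Over all prostate libraries CLDN22, CLCA2 and SLC28A3 did not run in the order of LMAN1L. CLDN22 did so only with BMI replicate 3 left out, at 1.09, 0.993, 0.834, 0.546 and 0.178 TPM from the highest LMAN1L to the lowest. CLCA2 and SLC28A3 did not do so in those 5 libraries either.

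For LMAN1 the most alike were TMEM39A (0.911), the COPII subunit SEC24D (0.895), the zinc transporter SLC30A7 (0.885), the ER-Golgi SNARE SEC22B (0.880) and the COPI subunit COPB2 (0.869). MCFD2 ran most like C18orf32 (0.954), SCOC (0.949), VPS11 (0.940), ATP6AP2 (0.936) and FAM210A (0.933), and LMAN2 like MIEN1 (0.926), TMEM69 (0.924), PRAM1 (0.919), SLC66A1 (0.894) and PDZD11 (0.893). For LMAN2L, 4 of the 5 most alike were WNT7B (0.882), RBM10 (0.880), ITPR1 (0.879) and SSBP2 (0.878). LMAN1 and its cofactor MCFD2 had r = 0.0526 with each other over the 30 libraries, LMAN1 and LMAN1L 0.551, and LMAN2 and LMAN2L 0.525.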

How the data were processed

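Per the labels and the study's methods, short reads were trimmed and the authors quantified them with Salmon 1.9.0 against Ensembl transcripts of Sscrofa11.1 plus Iso-seq isoforms outside the full and incomplete splice matches; the deposited values are transcript TPM without counts, so the reads behind a value cannot be recovered from them, and read totals given by the study were not used. The labels name rRNA depletion and the methods poly-T beads for these libraries. The authors clustered full-length Iso-seq reads of all libraries together, and the deposited counts are reads per isoform and library (231413 to 458697 per library). Positions were taken from the deposited annotation, and sequences from the RefSeq genome of the same build. The 30 small RNA libraries were not used here.

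TPM was summed by gene name and tested with limma 3.58.1 (R 4.3.3, trend) as log2(TPM + 1) for genes that reached 1 TPM in 3 or more libraries; a fold on this scale understates the change of low genes. Gland contrasts used all 30 libraries without blocks, breed contrasts those of 1 gland. P-values were adjusted by Benjamini-Hochberg, and a call needed an adjusted p below 0.05 and a log2 difference of at least 1. Ratios were tested by exact permutation. The members, gene lists and tests were chosen with earlier results of these data known. Named genes were each member in each contrast, transcripts with at least 10% of a gene's TPM, the called list genes with the largest differences (up to 3 per list or gland and direction) and the 5 genes most alike, 1 of which is not reported here. The scripts were tested on simulated data. Listed names without a row were MIA2, TMED2 and MAN1B1, and F5 stayed below the filter. Alternatives were another pseudocount, size factors, other filters, a replicate block, single breeds, Ensembl transcripts only, gene identifiers, each library left out, and, added after the data were seen, LMAN2 with fusion transcripts and 2 epididymal libraries left out together.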

Additional observations from a re-analysis of the deposited data

Results flagged for a closer look

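In the 6 libraries of a gland, 2 of 35 groups of values (5 genes and 2 ratios in 5 glands) held a library whose gap to its nearest neighbour was a large part of the whole range by Dixon's criterion, where chance gives about 1 in 20. LMAN2 was 135 TPM in DSE testis replicate 2, with a gap of 0.679 of the range, while the other 5 testis libraries held 86.5 to 102 TPM. The ratio of LMAN2 to LMAN1 was 3.35 in DSE vesicular gland replicate 1, with a gap of 0.678 of the range. That library had the least LMAN1 of the vesicular gland, 40.5 TPM.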

How the results depend on the processing

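Most calls on the 4 relatives were kept, and the scaling of the libraries changed more of them than any other setting. With size factors the relatives called went from 1 to 3 in testis, from 2 to 1 in epididymis and from 1 to 0 both for BG against VG and for BG against PG. Pathway genes called went to 3 higher and 5 lower in epididymis, 3 higher and 5 lower in VG, 1 higher and 1 lower in PG and 12 higher for BG against VG, and member transcripts called to 1 in epididymis and 1 in BG. The same scaling turned the sign of LMAN1 in epididymis (-0.32) and against VG (-0.28), of LMAN2 in VG (0.25), BG (-0.043) and against VG (-0.23), of LMAN2L in BG (-0.16) and against PG (-0.075), and of MCFD2 in BG (-0.020). Between breeds it turned LMAN2L in testis (-0.030) and PG (-0.36), LMAN2 in PG (-0.10) and MCFD2 in VG (0.062). In BMI libraries alone 0 relatives were called in testis, and 10 pathway genes were lower in VG and 9 in PG. In DSE libraries alone 1 relative was called in epididymis, 4 pathway genes were higher and 2 lower there, 26 were lower in VG, and 1 was higher and 1 lower in PG, while LMAN1 in epididymis was -0.20 and LMAN2L in VG -0.24. With Ensembl transcripts alone 2 relatives were called in VG, pathway genes were 7 higher and 2 lower in epididymis and 1 lower in BG, LMAN1 was -0.087 in epididymis and 0.29 in PG, LMAN2 was -0.049 in BG, the ratio of LMAN2 to LMAN1 was 0.84 in testis and -0.95 in PG, and the breed differences of LMAN1 in VG (-0.96) and LMAN2L in PG (-0.011) changed sign. A pseudocount of 0.1 gave 2 pathway genes lower and 5 member transcripts in epididymis. Without BMI epididymis replicate 1 and DSE epididymis replicate 2, chosen after seeing the data, 3 pathway genes were lower in epididymis and 1 in PG. The causes of these changes were not tested.

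Leaving out 1 library at a time gave 1 to 2 relatives called in epididymis (MCFD2 0.77 to 1.31) and 0 to 1 for BG against PG (LMAN1 0.92 to 1.13). Pathway genes numbered 0 to 1 higher and 1 to 5 lower in PG, and 1 to 2 lower in epididymis. The ratio of LMAN2 to LMAN1 ranged from -0.12 to 0.051 in testis and from -0.89 to -0.65 in VG, where it passed without DSE epididymis replicate 1, DSE vesicular gland replicate 1, BMI bulbourethral gland replicate 2 or DSE bulbourethral gland replicate 1. LMAN2L ranged from -0.029 to 0.12 in BG, -0.099 to 0.082 against VG and -0.026 to 0.14 in VG. Its breed difference ranged from -0.23 to 0.081 in BG, -0.081 to 0.21 in epididymis, -0.084 to 0.18 in PG and -0.11 to 0.16 in testis, and that of LMAN2 in epididymis from -0.52 to 0.42. Genes called between breeds ranged from 0 to 5 in BG, 0 to 938 in PG, 3 to 258 in testis and 57 to 445 in VG; the 938 came without BMI prostate gland replicate 2.

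Counts over all genes moved by over 1.5 times with a pseudocount of 0.1 (epididymis 4309 to 6543, VG 6563 to 10465, PG 3289 to 5955, BG 4063 to 6810, interaction 586 to 278, transcripts in epididymis 9083 to 17907, VG 10276 to 22920, PG 5935 to 14664 and BG 8309 to 18172), with Ensembl transcripts alone (testis 9414 to 5567, epididymis to 2596, VG to 3480, PG to 1711, BG to 2330) and with size factors (VG to 3845, BG against VG 5528 to 3298). Between breeds, counts were 102 in testis (31 with no filter, 949 with one fit of all glands, 13 with Ensembl transcripts), 0 in epididymis (140 with one fit), 150 in VG (1, 95 and 15), 46 in PG (0, 119 and 15, and 18 with either the pseudocount or size factors) and 3 in BG (0, 59 and 1, 10 with the pseudocount and 19 with size factors). A replicate block changed no call on a member, and moved the breed counts to 258 in testis, 678 in VG and 0 in PG. The labels do not say what a replicate number shares. Deviations correlated above 0.1 in 20 of 60 same-numbered pairs of glands (median 0.047) and 18 of 120 differently numbered ones (median -0.022), and in 4 of 15 and 10 of 30 pairs of breeds, so pairing was neither shown nor assumed. With TPM and no counts, low levels of LMAN1L outside BG and PG carry no counting interval.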
